A study of Rattus norvegicus with 24 samples.

Results

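The 7 rat genes of the AP-1 family were examined, which are the Fos genes Fos, Fosb, Fosl1 and Fosl2 and the Jun genes Jun, Junb and Jund. They were taken by symbol from a table of 17711 rows, and each has 1 row. RNA-seq was performed on the striatum, which receives the dopamine input of the midbrain, and on whisker follicles, the large sensory hair follicles of the snout, of male Sprague-Dawley rats. The MA group self-administered methamphetamine by lever press at 0.05 mg/kg per intravenous infusion, and the SA group pressed for saline, in sessions of 2 h over 16 days. Both groups had been trained with food pellets and had undergone surgery, so these are shared by the controls. There are 6 libraries for each treatment in each tissue, 24 in all, and a library is named by the index of 0 to 5 in its column. The interval between the last session and tissue collection is not given in the sources used here, and AP-1 transcripts are short-lived.

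AP-1 is a dimer of basic leucine zipper proteins. Fos proteins cannot pair among themselves and bind DNA together with a Jun protein, whereas Jun proteins can also pair with each other. Fos, Fosb and Junb are immediate early genes, whose transcripts rise within minutes of a stimulus through factors that are already present on their promoters, such as CREB and the serum response factor, and fall again soon after. In the striatum, psychostimulants are known to induce them in medium spiny neurons, and the long-lived splice product of Fosb, the protein ΔFosB, accumulates over repeated drug exposure. The table has a single FPKM value for each gene (sequenced fragments scaled to transcript length and to library size), so the splice forms of Fosb could not be told apart. In skin, Fos and Jun proteins take part in keratinocyte growth and differentiation.

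Promoters are shown for Fosl2, Junb and Fosb, whose transcripts moved together across the striatum libraries, and for Jund, the member with the highest mean level in both tissues. RefSeq promoters of the GRCr8 build were matched for 5 of the 7 members, all but Fos and Jun. Each stretch is the 250 bases before the annotated transcript start, 5′ to 3′ on the gene's strand. Capitals mark TGACG (or its reverse complement CGTCA), the core of the CREB site, TGACG followed directly by TCA, the full palindromic cAMP response element, which contains TGACG on both strands, and TATAAA on either strand.
Fosl2 (GRCr8, chr6:30039270-30039519, minus strand): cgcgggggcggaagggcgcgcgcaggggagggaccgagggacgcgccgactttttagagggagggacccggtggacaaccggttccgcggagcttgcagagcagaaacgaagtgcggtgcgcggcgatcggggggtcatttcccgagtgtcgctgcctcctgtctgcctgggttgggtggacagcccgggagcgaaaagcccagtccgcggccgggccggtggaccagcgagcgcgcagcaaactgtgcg
Junb (GRCr8, chr19:40080876-40081125, plus strand): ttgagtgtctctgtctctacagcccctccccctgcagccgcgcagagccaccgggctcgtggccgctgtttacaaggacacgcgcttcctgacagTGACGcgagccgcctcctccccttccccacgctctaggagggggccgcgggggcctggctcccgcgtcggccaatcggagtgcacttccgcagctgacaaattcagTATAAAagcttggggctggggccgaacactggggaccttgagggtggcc
Fosb (GRCr8, chr1:88089185-88089434, minus strand): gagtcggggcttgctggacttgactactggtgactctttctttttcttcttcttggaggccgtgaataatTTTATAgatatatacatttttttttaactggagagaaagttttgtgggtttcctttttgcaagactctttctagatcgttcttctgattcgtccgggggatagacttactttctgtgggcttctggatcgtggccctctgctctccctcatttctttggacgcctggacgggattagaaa
Jund (GRCr8, chr16:18769772-18770021, minus strand): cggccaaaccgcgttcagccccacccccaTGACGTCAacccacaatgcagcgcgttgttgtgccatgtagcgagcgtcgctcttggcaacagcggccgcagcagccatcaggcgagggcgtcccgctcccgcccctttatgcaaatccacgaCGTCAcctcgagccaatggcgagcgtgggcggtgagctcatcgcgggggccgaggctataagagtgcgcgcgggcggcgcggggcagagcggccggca
The full cAMP response element was found in the Jund promoter alone among the 5, with its first base 221 bases before the start, and 1.59% of 33469 rat promoters of the same length hold it. TGACG, which 18.2% of promoters hold, was found 3 times in Jund, of which the first 2 lie within that palindrome, 2 times in Fosl1 and 1 time in Junb. TATAAA, held by 12.9%, was found in Junb, 49 bases before the start, and in Fosb, 180 bases before it. The Fosl2 stretch held none of the motifs searched, and neither TGACTCA, the AP-1 site itself (4.05% of promoters), nor the CArG box of the serum response factor (1.5%) was found in any of the 5. These are matches of letters in 1 window and not measured binding.

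Over the whole table, the sum of FPKM in a library lay between 348717 and 418892 in the striatum and between 774567 and 1524570 in the whisker follicle. The table gives no read counts, and the paper states only an approximate number of reads for all samples. The depth of each single library is therefore unknown. The tissue labels were checked against markers: the summed FPKM of 12 medium spiny neuron markers was 2676 to 6913 in the striatum libraries and 2.51 to 29.4 in the follicle libraries, and that of 10 hair shaft genes was 15600 to 78611 in the follicle and 3.23 to 24.2 in the striatum. In the striatum, all 10 microglia and all 10 endothelial and pericyte markers tested, 7 of 8 for astrocytes, 4 of 4 for erythrocytes and 6 of 7 for fibroblasts and matrix were higher in mean in MA, as were 50.5% of all genes, and 0 of these markers passed the adjusted threshold in limma. At an unadjusted p under 0.05, 3 of the microglia, 1 of the endothelial, 5 of the astrocyte, 3 of the erythrocyte and 1 of the matrix markers were higher. The share of all genes higher at that level was 5.38%. Other lists were mixed, with 3 of 8 oligodendrocyte and 2 of 5 cortical and thalamic excitatory neuron markers higher in mean in MA. Of the medium spiny neuron markers 7 of 12 were higher in mean, with a median log2 difference of 0.017. In the follicle, 10 of 10 hair shaft markers were higher in mean in MA, as were 48.3% of all genes, with a median log2 difference of 1.34. At an unadjusted limma p under 0.05, 6 of them were higher, where 10.4% of all genes differed in either direction. None of the 10 passed the adjusted threshold.

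In the striatum, Fosl2, Junb, Fosb and Fosl1 were higher in most MA libraries than in SA, Fos less evenly so, and Jun and Jund differed little between the groups. All 7 were higher in mean, Jun by as little as 0.01 in log2, as were 50.5% of all genes. None of the 7 passed the threshold in limma, which asked for a 1.5-fold difference on log2(FPKM + 1) with a Benjamini-Hochberg adjusted p under 0.05. A single gene of the 10607 tested passed it, which is 0.00943%. At an unadjusted p under 0.05, 4 of the 7 were higher in MA and none lower, against 5.38% of all genes higher and 2.88% lower. The paper reports Fosb, Fosl2 and Junb as higher in MA from the same libraries. Its test, Cuffdiff, was used with a false discovery rate under 0.05 and a fold of at least 1.5. Their direction here is therefore not independent evidence. The paper also reports Western blot and RT-PCR checks of its key genes, which were not examined here.

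Fosl2 encodes FRA-2, a Fos protein that lacks the strong activation domain of FOS. Its FPKM was 1.85, 3.79, 2.14, 1.41, 2.25 and 3.02 in SA libraries 0 to 5 and 11.6, 21.5, 10.4, 12.9, 7.69 and 2.11 in MA libraries 0 to 5. MA libraries 0 to 4 were all above every SA library, and MA library 5 lay among the SA values. The mean was 2.41 ± 0.859 for SA libraries and 11.04 ± 6.40 for MA libraries (SD, n = 6), a ratio of 4.58. The log2 difference was 1.64 (SE 0.37), the highest of the 10607 genes tested, and ranked 7 by unadjusted p, with an adjusted p of 0.577 in limma. An exact permutation test over the 924 assignments of the 12 libraries gave p = 0.0108 (two-sided, unadjusted), where the smallest p it can give is 0.00216.

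Junb encodes a Jun protein that is a weaker activator than JUN and can hold it back. Junb FPKM was 32.2, 30.2, 25.1, 51.4, 19.0 and 36.4 in SA libraries 0 to 5 and 80.7, 111, 55.9, 58.2, 53.1 and 31.8 in MA libraries 0 to 5. Again 5 of 6 MA libraries exceeded every SA library, and MA library 5 was the exception, near the SA median. The mean went from 32.4 ± 11.1 in SA to 65.2 ± 27.5 in MA (SD, n = 6), a ratio of 2.01. The log2 difference was 0.95 (SE 0.28; limma adjusted p = 0.577; exact permutation p = 0.0152).

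Fosb was lower in level and less cleanly separated. Its FPKM was 2.66, 4.10, 1.83, 2.68, 1.14 and 3.31 in SA libraries 0 to 5 and 6.60, 10.3, 4.31, 5.82, 3.95 and 1.57 in MA libraries 0 to 5. In 4 MA libraries Fosb was above every SA library, in MA library 4 it was just under the highest SA value, and in MA library 5 it was the second lowest of the 12. The group means were 2.62 ± 1.05 and 5.43 ± 2.97 (SD, n = 6), a ratio of 2.07, and the log2 difference was 0.74 (SE 0.31; limma adjusted p = 0.593; exact permutation p = 0.0584).

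Fosl1 encodes FRA-1, the other Fos protein without that domain, and it was the lowest of the 7 in both groups. The SA libraries held 1.29 to 1.76 FPKM (median 1.67), the MA libraries 1.72 to 2.65 (median 2.16), and 5 of 6 MA libraries were above every SA library. The difference was small, with means of 1.59 ± 0.200 and 2.16 ± 0.351 (SD, n = 6), a ratio of 1.36. On the log2 scale it was 0.28 (SE 0.099; limma adjusted p = 0.577; exact permutation p = 0.00649), a scale that understates changes at so low a level.

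Fos, the gene most often read as a mark of recent neuronal activity, varied widely within both groups. Its FPKM was 5.62, 2.85, 5.53, 14.1, 3.83 and 5.01 in SA libraries 0 to 5 and 9.65, 19.6, 8.44, 8.95, 4.87 and 5.17 in MA libraries 0 to 5. SA library 3 stood above all MA libraries but library 1, and MA libraries 4 and 5 lay within the bulk of the SA values. The log2 difference was 0.56 (SE 0.34, 95% interval -0.17 to 1.29; limma adjusted p = 0.662; exact permutation p = 0.186).

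**Figure D1:**
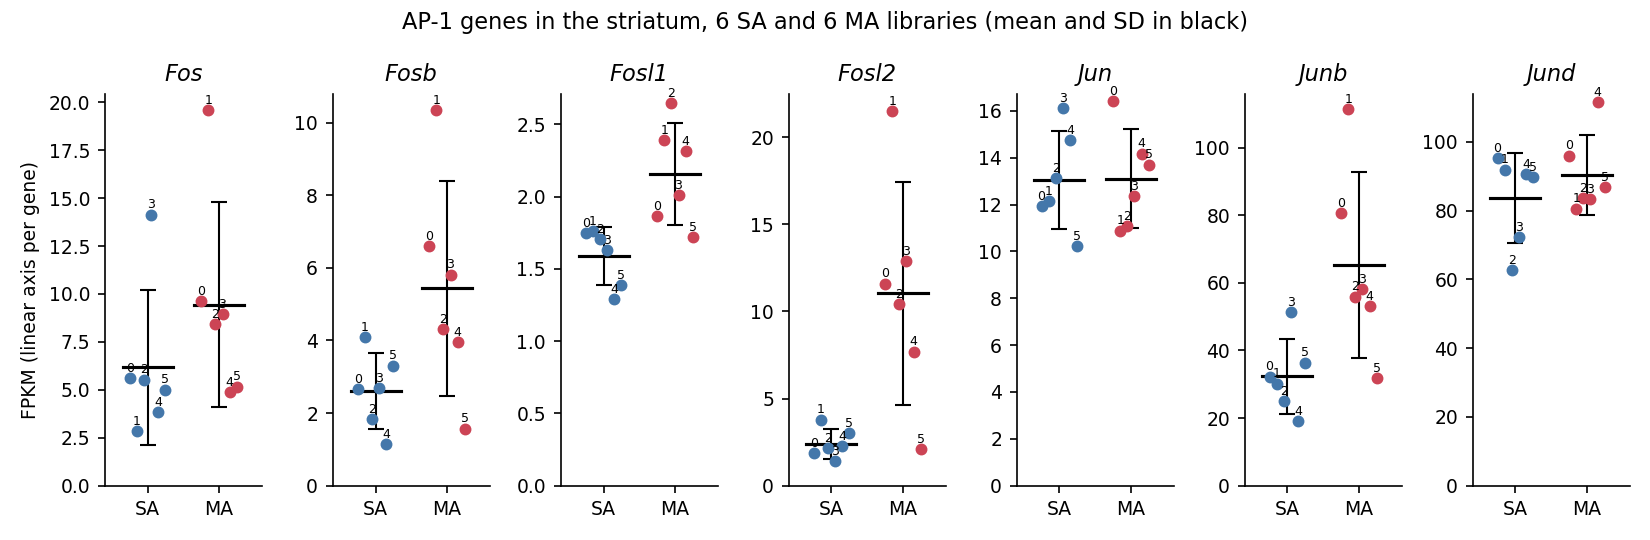
FPKM of the 7 AP-1 genes (1 panel each, vertical axis in FPKM from 0 and scaled per gene) in the 6 SA (blue) and 6 MA (red) striatum libraries, with the library index beside each point and the mean and SD in black. For Fosl2 and Junb, 5 MA points lie above every SA point and MA library 5 does not, while Jun and Jund overlap throughout.

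The remaining Jun genes did not separate by treatment. Jun, the strongest activator among the Jun proteins, had a mean FPKM of 13.0 ± 2.11 with SA and 13.1 ± 2.10 with MA (SD, n = 6). Its log2 difference of 0.01 (SE 0.12, 95% interval -0.25 to 0.26) turned to -0.01 after quantile normalization or after centring the libraries on a common median. Jund, which is expressed at a steady level in most tissues and is not an immediate early gene, averaged 83.7 ± 13.1 with SA and 90.3 ± 11.7 with MA (SD, n = 6), with a log2 difference of 0.11 (SE 0.12, 95% interval -0.14 to 0.37). These intervals leave room for differences of up to about 0.26 and 0.37 in log2, so equality was not shown.

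The make-up of the family shifted with these differences. Of the summed FPKM of the 7 genes, Jund made up a mean of 59.2% in SA and 47.4% in MA, Junb 22.5% and 32.0%, and Fosl2 1.72% and 5.32%. The 4 Fos genes together made up 8.96% ± 2.07 in SA and 13.7% ± 4.84 in MA (SD, n = 6). By mean level the order in SA was Jund, Junb, Jun, Fos, Fosb, Fosl2 and Fosl1, and the ranges of neighbours overlapped from Jun downward. In MA, Fosl2 moved from the sixth place to the fourth, between Jun and Fos, with ranges that overlapped both neighbours, and those of Jund and Junb also overlapped. FPKM is scaled to transcript length, which is what allows levels to be set side by side between genes.

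Which library was left out mattered for Fosl2. It passed the threshold without MA library 5 (log2 difference 1.98, limma adjusted p = 0.00514), a fit in which 0.0378% of genes did. That library, and SA library 4, held the lowest summed medium spiny neuron markers of their groups, at 2701 and 2676 FPKM, where the other striatum libraries held 3541 to 6913. Both were also lowest in their groups for 10 cortical and thalamic excitatory neuron markers, at 514 and 767 FPKM. The low sums were thus seen in both neuron lists. Only 5 of the 10 excitatory neuron markers passed the level filter in the striatum. Whether that list is independent of medium spiny neuron content there was not tested. SA library 4 also held the lowest SA values of Fosb, Junb and Fosl1, and MA library 5 the lowest MA values of Fosb, Fosl1, Fosl2 and Junb. For Fosl2, SA library 4 was not low, at 2.25 FPKM against an SA median of 2.19. Without both libraries, an alternative chosen after seeing the data, Fosl2 passed (1.98, limma adjusted p = 0.0209, 0.0283% of genes called), while Junb (1.00, adjusted p = 0.467) and Fosb (0.84, adjusted p = 0.723) did not. In bulk tissue, fewer cells of a type and less RNA per cell cannot be told apart, and the part of cell composition in these differences was not tested.

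Members were set against the medium spiny neuron marker sum over the 12 striatum libraries. For Fosb the Pearson r was 0.68 (permutation p = 0.0142, adjusted over 13 relations of this kind 0.0415; rho 0.56, adjusted p = 0.136), and r was 0.35 without the 2 libraries farthest from the median sum, so the relation rested largely on them. For Fosl2 the pooled r was 0.49 (adjusted permutation p = 0.192) and 0.36 without those 2 libraries, with 0.45 within SA and 0.96 within MA. Fosb had an r of 0.74 within SA and 0.88 within MA, and Junb 0.22 and 0.79. Jun had the opposite sign, with r = -0.59 (adjusted permutation p = 0.0966; rho -0.65, adjusted p = 0.112) and -0.69 without those 2 libraries. MA library 1, highest for Fos, Fosb, Fosl2 and Junb, had the lowest microglia (225 FPKM), astrocyte (2411) and matrix (28.3) sums of the 12 libraries. In MA libraries 3 and 4, which held the highest erythrocyte sums of 5658 and 1830 FPKM, Fosl2 was 12.9 and 7.69, and without them the log2 difference was 1.59 for Fosl2 and 1.01 for Junb.

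**Figure D2:**
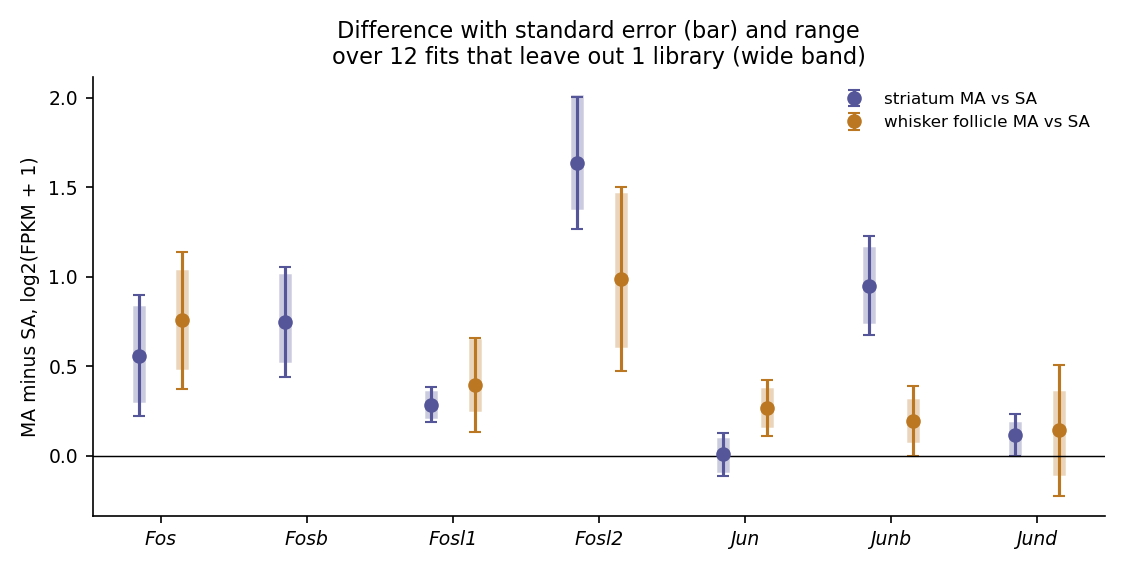
Difference of MA from SA in log2(FPKM + 1) for the 7 genes (vertical axis) in the striatum (blue) and whisker follicle (orange), as the point with its SE and, as a wide band, the range over 12 fits that each leave out 1 library; Fosb in the follicle was below the level filter. In the striatum the band of Fosl2 runs from 1.41 to 1.98 and that of Junb from 0.78 to 1.13, both clear of 0, and that of Jun spans 0.

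The same libraries tended to be high for several members at once. Over the 12 striatum libraries, Fosb and Junb had a Pearson r of 0.90 (rho 0.87) and Fosb and Fosl2 an r of 0.89 (rho 0.85), both with a permutation p adjusted over 21 pairs of 0.00105. Without the 2 libraries farthest from the median these were 0.78 and 0.87. Within the 6 MA libraries r was 0.98 for both pairs, and within the 6 SA libraries 0.64 and 0.47. Fosl2 and Junb had r = 0.82 over all libraries and 0.93 within MA, but -0.31 within SA, and Fos and Fosl2 went from -0.83 within SA to 0.82 within MA. Jun had an r of -0.29 to 0.04 with each of the other members, and Jund one of -0.36 to 0.21.

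Other immediate early genes followed the same libraries. The 3 genes most like Fosl2 over the 12 libraries were Nr4a3, an orphan nuclear receptor (r = 0.99), Dusp5, a phosphatase of ERK (r = 0.97), and Per1, a light- and stimulus-induced clock gene (r = 0.94). For Junb they were Gadd45g (r = 0.93), Nr4a1 (r = 0.93) and Egr2 (r = 0.92), for Fosb Frmd6 (r = 0.95), Rem2 (r = 0.95) and Egr4 (r = 0.94), and for Fos Gadd45g (r = 0.84), Junb (r = 0.82) and Dusp1 (r = 0.82). Of a list of 27 tested immediate early genes outside the family, 26 were higher in mean in MA (50.5% of all genes), 14 of them at an unadjusted p under 0.05 (5.38% of all genes) and 0 with an adjusted p under the threshold, and the median log2 difference was 0.44, against 0.0022 over all genes. Nr4a3 averaged 1.19 ± 0.660 FPKM with SA and 6.67 ± 4.19 with MA (SD, n = 6), a log2 difference of 1.62 (SE 0.38, limma adjusted p = 0.577). For Nr4a1 the means were 13.9 ± 7.85 and 47.3 ± 27.3, a log2 difference of 1.58 (SE 0.47). Dusp5 (0.70, SE 0.21) and Arc, a synaptic regulator of glutamate receptors (1.19, SE 0.38), completed the 4 genes of this list with the smallest p. The paper named Arc and Per1 from these libraries.

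**Figure D3:**
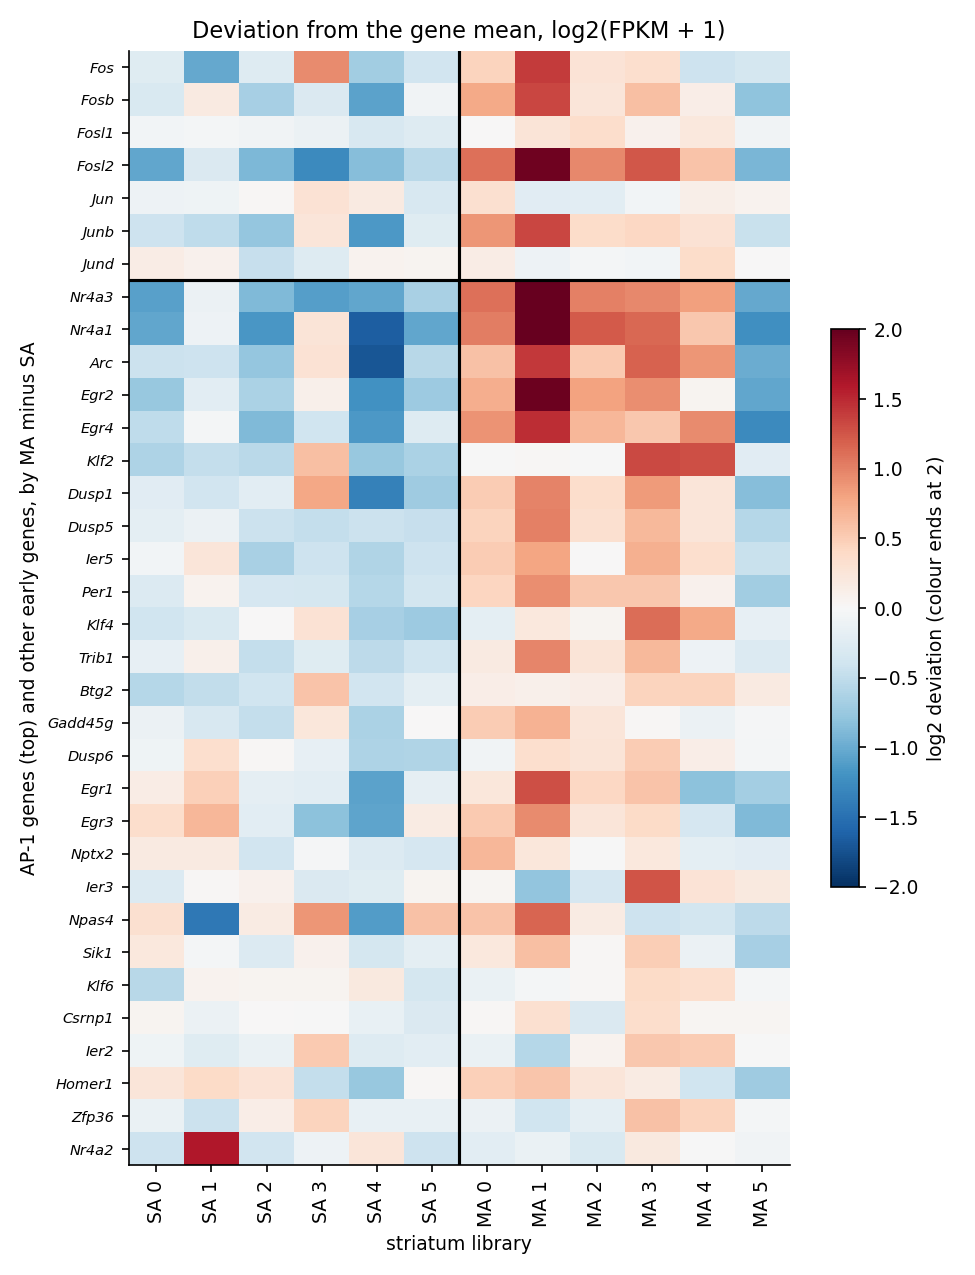
Deviation of each striatum library from the gene's mean in log2(FPKM + 1), with the 7 AP-1 genes above the line and 27 other immediate early genes below it, ordered by the difference of MA from SA (red higher, blue lower, colour ends at 2). MA library 1 is red for Fos, Fosb, Fosl2, Junb, Nr4a3, Nr4a1 and Egr2, whereas MA library 5 and SA library 4 are blue for Fosb, Junb, Nr4a1 and Arc.

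Genes around AP-1 in the pathway were counted in the same way, against 5.38% of all genes higher and 2.88% lower at an unadjusted p under 0.05. Of 12 tested dimer partners and related leucine zipper genes in the striatum, 4 were higher at an unadjusted limma p under 0.05 and 0 lower, with a median log2 difference of 0.17. These were Crem (0.31), Cebpb (0.58), Cebpd (0.71) and Maf (0.33). Of 19 kinases and factors upstream, 2 were higher and 1 lower at that level (median -0.02): Srf, the serum response factor (0.44, SE 0.16), Mapk8ip1, a JNK scaffold (0.25, SE 0.11), and Map2k7, a kinase that activates JNK (-0.20, SE 0.093). Mapk8, which encodes JNK1, was at -0.21 (SE 0.10). Of 14 genes known as AP-1 targets, none reached an unadjusted p under 0.05 (median 0.20), with Cdk5 at -0.14, Hmox1 at 0.35, Ccnd1 at 0.34 and Vgf at 0.41. No gene of these 3 lists passed the adjusted threshold.

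In the whisker follicle, all 6 members tested were higher in mean in MA, and none passed the threshold in limma, where 0 of 9138 genes (0%) did. None had an unadjusted p under 0.05 either, against 953 genes or 10.4% of all tested, and 48.3% of all genes were higher in mean in MA. Fosb, at a mean of 0.241 ± 0.186 FPKM with SA and between 0 and 1.27 in MA, was under the level filter of a mean FPKM of 1 and is listed at 0 in MA library 4.

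Fos was at 4.67, 2.74, 3.24, 2.07, 1.22 and 0.810 FPKM in SA libraries 0 to 5 and 4.72, 11.4, 6.72, 5.09, 1.30 and 2.36 in MA libraries 0 to 5. MA libraries 0 to 3 were above every SA library, MA library 0 only just, and MA libraries 4 and 5 were within the SA range. The ratio of means was 2.14 and the log2 difference 0.75 (SE 0.39; limma adjusted p = 0.465; exact permutation p = 0.106). Jun, with a mean of 38.6 ± 7.56 for SA and 46.7 ± 9.75 for MA (SD, n = 6), had a log2 difference of 0.27 (limma adjusted p = 0.474).

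Fosl2 and Fosl1 turned on a single SA library. Fosl2 FPKM was 53.2, 20.5, 6.20, 8.57, 7.39 and 2.50 in SA libraries 0 to 5 and 18.3, 26.6, 26.0, 17.95, 15.5 and 30.7 in MA libraries 0 to 5. SA library 0 was above every MA library, and 4 of the SA libraries were below every MA library. Fosl1 was at 16.8 in SA library 0, 4.62 to 8.20 in the other SA libraries and 7.84 to 14.4 in MA. With all libraries the log2 differences were 0.99 for Fosl2 (SE 0.51, limma adjusted p = 0.465) and 0.39 for Fosl1 (SE 0.26, adjusted p = 0.494). By mean FPKM the ratios were 1.37 for Fosl2, whose SA mean is carried by library 0, and 1.26 for Fosl1.

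Without SA library 0, Fosl2 (1.43, limma adjusted p = 0.0229) and Fosl1 (0.62, limma adjusted p = 0.0346) both passed the threshold, as did 1219 of 9059 genes. That is 13.5% of genes, so 2 of 6 members stood in a fit where calls were common, 671 (7.41%) of them higher in MA. The library also had the highest hair shaft marker sum of the 12, 78611 FPKM. Over the 12 follicle libraries Fosl1 had r = 0.91 (rho 0.92) and Junb r = 0.89 (rho 0.85) with that sum, each with a permutation p adjusted over the 13 relations of 0.000520 for r, and 0.92 and 0.83 without the 2 libraries farthest from the median. For Fosl2 r was 0.75 pooled, 0.80 within SA and -0.12 within MA. Hair shaft markers were themselves higher in mean in MA, with overlapping sums of 35371 to 74696 against 15600 to 78611 in SA. The part of hair shaft content in these differences was not tested.

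**Figure D4:**
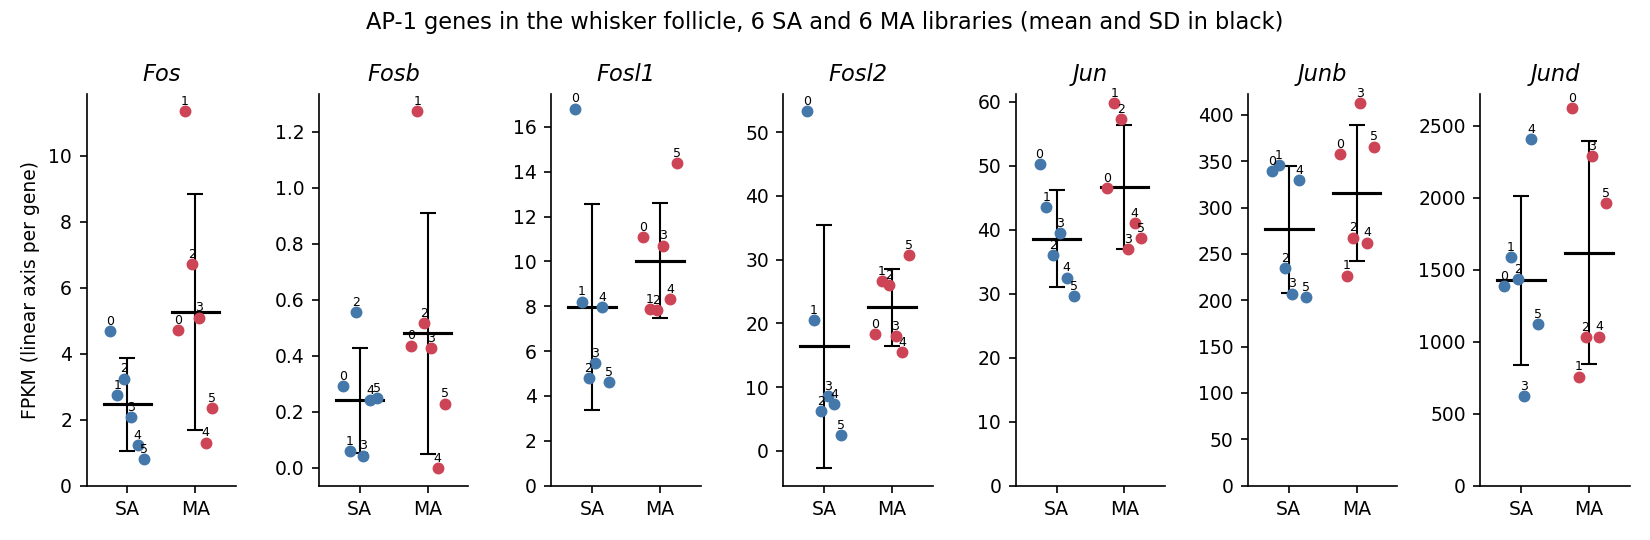
FPKM of the 7 AP-1 genes (vertical axis scaled per gene) in the 6 SA (blue) and 6 MA (red) whisker follicle libraries, with the library index beside each point and the mean and SD in black. SA library 0 stands apart at 16.8 for Fosl1 and 53.2 for Fosl2, and the groups overlap for all 7 genes.

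Mean Junb FPKM was 276.5 ± 68.4 with SA and 315.5 ± 73.2 with MA (SD, n = 6), a log2 difference of 0.19 (limma adjusted p = 0.623). Jund ranged from 621 to 2408 in SA and from 758 to 2625 in MA, with a log2 difference of 0.14 (SE 0.37, limma adjusted p = 0.857). Junb and Jund varied together over the 12 follicle libraries (r = 0.83, permutation p adjusted over 15 pairs 0.00634), as did Fosl1 and Fosl2 (r = 0.85, adjusted p = 0.00517; 0.92 within SA and 0.21 within MA) and Fos and Jun (r = 0.84, adjusted p = 0.00517). The pairs that varied together in the striatum, Fosb with Junb and Fosb with Fosl2, could not be set beside these, since Fosb was below the filter. Ranked by r among all genes compared in the follicle, Jund was 202 for Junb and Junb 114 for Jund. Fosl1 was 1048 for Fosl2 and Fosl2 395 for Fosl1, while Jun was 15 for Fos and Fos 458 for Jun. Most of these follicle pairs were thus exceeded by many genes outside the family. The genes most like Fosl2 in the follicle were Mon1b (r = 0.99) and Mreg (r = 0.99), and those most like Fosl1 were Slc7a8, an amino acid transporter (r = 0.97), and Cdr2 (r = 0.97), none of them on the list of immediate early genes.

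Around the family in the follicle, where 10.4% of all genes had an unadjusted limma p under 0.05, 1 of 14 dimer partners was higher and 1 lower at that level, namely Maff (log2 difference 0.75, SE 0.33) and Cebpb (-0.69, SE 0.31). The latter had the opposite sign in the striatum. Upstream of AP-1, Rps6ka1, a kinase of the ERK pathway, was lower (-0.38, SE 0.17) and none of the 16 tested was higher at that level. Of 13 targets, Ccnd1 (-0.47, SE 0.14) and Timp1 (-0.70, SE 0.27) were lower and Bdnf (0.40, SE 0.17) and Odc1 (0.32, SE 0.14) higher at that level. Of 23 other immediate early genes, Per1 (0.93, SE 0.31), Klf4 (0.49, SE 0.18) and Klf2 (0.78, SE 0.30) were higher and Egr2 (-0.42, SE 0.11) lower, with a list median of 0.14. All of these had limma adjusted p-values of 0.465.

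The MA effect itself was compared between the tissues as an interaction in limma over the 24 libraries. The paper took both tissues from the same rats. This fit and the tissue comparisons below treated all libraries as independent, so their SE and p-values leave out that pairing. For Junb it was larger in the striatum by 0.75 in log2 (SE 0.35; limma adjusted p = 0.433), the only member with an unadjusted p under 0.05, which 11.4% of genes had. For Fosl2 the difference was 0.65 (SE 0.66, 95% interval -0.72 to 2.02) and for Fosb 0.52 (SE 0.37). No member passed the adjusted threshold, which 0.00910% of 10985 genes did. The difference was -0.20 for Fos, -0.26 for Jun, -0.11 for Fosl1 and -0.03 for Jund, and the signs for Fos, Fosl1 and Jund turned with the normalization or with library weights. Whether these 4 differed between the tissues in their response could not be resolved with 6 libraries a group, where the SE of Fos was 0.54.

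On FPKM as given, most members differed more between the tissues than between the treatments, by a wide margin for Jund, Junb, Jun and Fosl1. For Fosl2 the tissue differences of -1.80 in SA and -1.15 in MA stood against a treatment difference of 1.64 in the striatum. For Fos they were 1.01 and 0.81, against a treatment difference of 0.75 in the follicle. In SA rats all 7 members passed the threshold in limma, as did 74.5% of all genes. Fos (2.51-fold by mean FPKM, log2 difference 1.01, adjusted p = 0.0116) and Fosb (10.9-fold, 1.5, adjusted p = 4.90e-06) were higher in the striatum. The other 5 were higher in the follicle. Jund, at 83.7 ± 13.1 in the striatum and 1427 ± 589 in the follicle (SD, n = 6), showed the widest gap of the 7 (-3.98, limma adjusted p = 3.82e-09). In 5 members no library of one tissue overlapped the other, Fosb above (as for 38.6% of genes) and Fosl1, Jun, Junb and Jund below in the striatum (29.1% of genes).

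Junb followed with 32.4 ± 11.1 against 276.5 ± 68.4 (-3.08, limma adjusted p = 1.15e-08), then Fosl2 (-1.80, adjusted p = 0.00481), Fosl1 (-1.67, adjusted p = 1.58e-05) and Jun (-1.49, adjusted p = 2.16e-07). The Fos and Fosb calls depended on scaling: the median difference of all genes was 0.24, -0.17 on a common median and -0.10 after quantile normalization. Fos fell out on a common median (0.59, limma adjusted p = 0.101) and after quantile normalization (0.23, adjusted p = 0.539), and Fosb after quantile normalization (0.42, adjusted p = 0.0780). The split of all calls moved likewise, from 4657 higher and 3506 lower to 3755 and 4498 on a common median. The 5 members higher in the follicle kept their call and sign under both scalings. Scaling to the summed FPKM of a library was not tried. The median sum was 353474 in SA striatum and 1242810 in SA follicle libraries. Mean Jun FPKM, at 13.0 and 38.6, differed by a smaller factor than these sums, so its sign was not shown to hold under that scaling. The median share of the family in the sum was 0.0408% in the striatum and 0.151% in the follicle.

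In MA rats, where 72.7% of genes passed, 6 of 7 did so with the same signs, and Fos did not (0.81, limma adjusted p = 0.0594). The gap of Fosl2 was -1.15 and that of Junb -2.33. The median sum of FPKM was 375360 in MA striatum and 1122120 in MA follicle libraries. Mean Fosl2 FPKM in MA, at 11.04 and 22.5, differed by a smaller factor. Its sign in MA was therefore not shown to hold under scaling to these sums. In the follicle the order by mean level was Jund, Junb, Jun, Fosl2, Fosl1, Fos and Fosb in both groups, and Jund made up 79.4% of the family's summed FPKM in SA and 78.1% in MA.

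**Figure D5:**
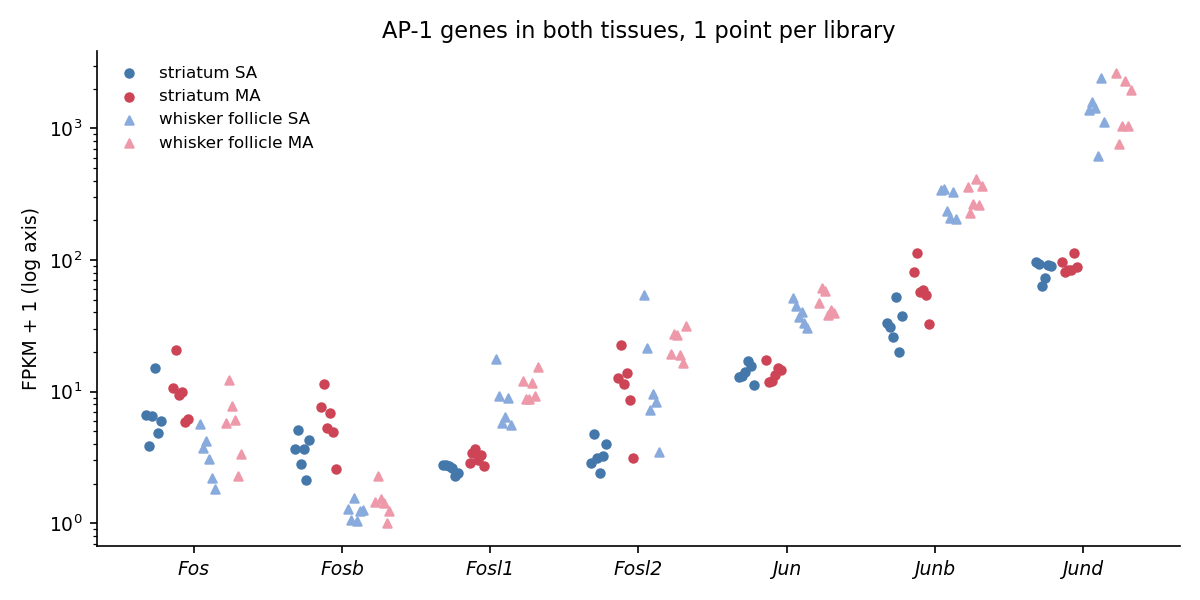
FPKM + 1 (log axis) of the 7 AP-1 genes, 1 point per library, in the striatum (circles) and whisker follicle (triangles), SA in blue and MA in red. Junb and Jund in the follicle lie wholly above the striatum, Fosb lies below it in most libraries, and Fosl2 spreads over 1.41 to 53.2 FPKM in the SA libraries alone.

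The lists around AP-1 also differed between the tissues in SA rats. Of 19 upstream kinases and factors, 12 passed the threshold as higher in the striatum and 3 as lower (median log2 difference 2.07), against 42.5% and 32.0% of all genes. Of 15 dimer partners, 4 were higher in the striatum and 8 lower (median -0.99), of 26 other immediate early genes 10 and 13 (median -1.01), and of 15 targets 8 and 7 (median 1.04). The summed level of the 17 partners in the table was 155 to 197 FPKM in the SA striatum and 879 to 1232 in the SA follicle. As for Junb and Jund, the higher sums were those of the follicle. Atf4 and Cebpb, with means of 590 and 259 FPKM in the SA follicle, carried most of a median sum of 1035. Atf2 and Jdp2 went the other way, at 21.4 and 14.5 FPKM in the SA striatum against 1.24 and 0.643 in the SA follicle. The sums therefore do not describe the partners as a class.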

How the data were processed

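The authors deposited 1 table of FPKM values with a column per library, and these were used as they stand. The paper names Cutadapt, TopHat2 and Cufflinks with the rn6 genome, whereas STAR 2.6.0c and Cufflinks 2.2.1 on rn6, after bcl2fastq, are listed in the submitters' processing notes. The annotation is not given in the sources used here. The table holds no read counts, so depth and counting error are unknown, and every SD and SE given comes from the spread between libraries. The labels call these biological replicates.

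Groups were compared by moderated linear models of limma 3.58.1 (R 4.3.3) with the variance allowed to follow the mean, fitted to log2(FPKM + 1) for genes whose FPKM averaged 1 or more in the libraries compared, with Benjamini-Hochberg adjustment over all genes tested. The study's own test, Cuffdiff, needs reads. With the added 1, folds of genes at a few FPKM come out too small. Single genes were also compared by exact permutation, unadjusted over genes, and correlations used 100000 permutations (numpy 2.4.6, scipy 1.17.1). The SA libraries of a tissue serve both the treatment and the tissue comparison. The limma step was tested on simulated data.

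Named genes are the 7 members, up to 4 genes with the smallest p of each pathway list and tissue, and the 3 most alike by Pearson r for the members described most. The members and lists were chosen with earlier results of these data known. Alternatives were quantile normalization, centring on a common median, library weights, pseudocounts of 0.1 and 0.5, a filter at a mean of 5 or none, a fit without the trend, a fold taken from mean FPKM, and fits without single libraries. Promoter windows and their coordinates are RefSeq GRCr8 and were not joined to rn6 positions.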

Additional observations from a re-analysis of the deposited data

Results flagged for a closer look

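In 4 of 28 groups of 6 libraries (7 genes in each tissue and treatment), the highest library lay farther from the rest than Dixon's 95% critical value for 6 values allows. The test was run on FPKM without the log and was not repeated on log2(FPKM + 1), the scale of the fits. Its chance rate of about 1 in 20 groups assumes normally distributed values, so no excess over chance was shown. In the striatum, SA library 3 held 14.1 FPKM of Fos, against 2.85 to 5.62 in the other SA libraries, and MA library 1 held 19.6 FPKM of Fos, against 4.87 to 9.65 in the other MA libraries. In the whisker follicle, SA library 0 held 16.8 FPKM of Fosl1 and 53.2 FPKM of Fosl2, so the same library gave both values. No cause of these values was tested.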

How the results depend on the processing

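No paired analysis was possible because the columns carry an index with no stated link to the numbered rats, so neither the replicates nor the tissues of a rat could be matched. Of 1021 member values under alternatives, 964 kept their sign and side of the threshold, 3 lost and 19 gained the threshold, and 35 changed sign. For the exact permutation tests among them, the threshold was an unadjusted p under 0.05. Gains of that kind were 4 for Fosb and 1 for Fos in the striatum. In the follicle they were 1 each for Fos, Fosl1 and Fosl2. In the striatum 0 genes passed with a mean FPKM of at least 5, 0 without MA libraries 3 and 4, 3 without MA library 5 and SA library 4, and 0 to 4 when each library was left out, against 1. In the follicle 1160 passed with library weights (Fosl1 0.69, adjusted p = 0.0190; Fosl2 1.34, adjusted p = 0.0154) and 0 to 1219 when each library was left out. The tissue difference had 8051 to 8390 calls in SA and 7872 to 8076 in MA. The interaction had 3 calls with a pseudocount of 0.1, 4 with no filter, 0 with a mean FPKM of at least 5, 2 after quantile normalization, 2222 with library weights and 1 to 1596 when each library was left out. Jun in the striatum was at -0.0079 under quantile normalization, -0.0076 on a common median and -0.0068 without MA libraries 3 and 4, and from -0.057 to 0.066 when each library was left out. Jund in the follicle ranged from -0.077 to 0.33. For the interaction, Fos was 0.056 after quantile normalization and 0.059 with library weights (-0.44 to 0.048 over libraries left out), Fosl1 0.036 after quantile normalization, and Jund 0.0035 on a common median (-0.22 to 0.19). The cause was not tested. Fosb in the striatum gave an exact permutation p of 0.0476 on FPKM without the log, and of 0.0159 on log2(FPKM + 1) without MA library 5 and SA library 4. FPKM under about 1, as for Fosb in the follicle, carries the least certain values.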
